A study of Mus musculus with 8 samples.

Results

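The genes of the translation initiation factors (symbols beginning Eif and a digit) and elongation factors (Eef and a digit) were followed in inguinal white adipose tissue (ING WAT), the subcutaneous fat depot of the groin, of C57BL/6j mice at weaning on postnatal day 21 (PN21) and in young adulthood on postnatal day 98 (PN98). Members were chosen by symbol alone. After the Y-linked *Eif2s3y* and 4 pseudogenes were set aside, 63 of the 37199 genes of the table remained. Each age had 4 mice, which the labels name m1, m49, m138 and m145 at PN21 and m35, m106, m114 and m125 at PN98 and for which the labels name no treatment or transgene. The study's methods give 2 diets for mice older than PN42, and the labels do not say which of them the sequenced PN98 mice ate. Age, weaning and the change of diet that follows it cannot be told apart in this design. Expression was the summed FPKM of a gene (fragments per kilobase of transcript, relative to the library), which is corrected for length, so that levels of different genes can be set beside each other.

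Initiation factors bring the small ribosomal subunit and the initiator tRNA to the start codon of an mRNA, and elongation factors then deliver each aminoacyl-tRNA and move the ribosome along. The cap of the mRNA is bound by eIF4E, and the helicase eIF4A, held by the scaffold eIF4G, unwinds the leader. Control is exerted mainly on eIF4E, through its binding proteins downstream of the kinase mTORC1, on eIF2, which stress kinases phosphorylate, and on the elongation factor eEF2 through its kinase eEF2K.

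Markers of several cell types differed between the ages in these bulk samples, where fewer cells of a type and less RNA per cell cannot be told apart. A gene was called at a limma adjusted p below 0.05, which 5.49% of all genes tested reached. Of all genes tested 67.0% were lower at PN98. Of 7 adipocyte markers 6 were higher at PN98 and 3 were called, with summed levels of 12284 to 22532 FPKM at PN21 and 33221 to 43423 FPKM at PN98. Most of this sum was *Fabp4*, at 10641 to 20251 FPKM at PN21 and 27521 to 37466 FPKM at PN98. *Plin1* was at 1.73 to 15.4 FPKM and 9.63 to 20.2 FPKM. Of 6 brown adipocyte markers 5 were lower and none was called, of 3 tested Schwann cell markers all were lower and 2 were called, and of 5 tested epithelial markers all were lower and 1 was called. All 6 genes of cycling cells were lower at PN98 and 5 were called (57.6 to 96.03 FPKM summed at PN21 and 6.39 to 23.5 FPKM at PN98). All 11 lymphocyte markers were lower on average and none was called. Their sum was 587 to 1391 FPKM at PN21, but at PN98 it was 1205 FPKM in mouse m35 against 24.0 to 275 FPKM in the other mice. All 13 skeletal muscle markers were higher on average and 2 were called, with sums of 70.1 to 656 FPKM at PN21 and 579 to 3705 FPKM at PN98. The part of these differences in the results that follow was not tested except where a value is given beside a gene.

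Of the 63 members, 60 reached the mean of 1 FPKM over the 8 mice that was required for testing. The others were *Eif4e1b*, a cap-binding gene known from oocytes, listed at 0 in 7 mice and at 0.118 FPKM in mouse m106 of PN98, *Eif5a2*, the less abundant eIF5A gene, at 0.464 to 1.38 FPKM, and *Eif2c5*, an RNA gene that matches by its symbol only and is no translation factor, listed at 0 in 7 mice. The levels of the 60 tested members spanned a wide range. The eEF1A gene *Eef1a1*, whose product delivers aminoacyl-tRNA, was the most abundant at 2692 ± 282 FPKM at PN21 and 2243 ± 632 FPKM at PN98 (SD, n = 4 each). It was followed by *Eef1b2*, *Eif4g2*, *Eef2* and *Eef1g*, each with an age mean between 213 and 773 FPKM.

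A limma fit over all 15789 genes called 2 of the 60 members (3.33%), both lower at PN98, beside 5.49% of all genes tested in either direction and 3.07% in the lower. The called members were *Eif4e2*, a cap-binding homologue of eIF4E, and *Eif4a1*, the main eIF4A helicase. At an unadjusted p below 0.05 stood 16 members, 15 of them lower, beside 27.6% of all genes (19.4% lower). A log2 difference below 0 was found in 52 of 60 members and in 67.0% of all genes, and the median difference was -0.24 on the log2 scale over the members and -0.21 over all genes tested. The ages did not overlap in 14 members (23.3%), each lower at PN98, where this held for 16.2% of all genes in either direction and for 10.1% in the lower direction. The share called and the median difference of the members were thus close to those of all genes.

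The general shift depended on the scaling. When each library was scaled to the sum of its nuclear genes, 30 members were lower and 30 higher, with a median of -0.0010 for the members and 0.0068 for all genes, and with the median of ratios 35 were lower and 25 higher. *Eif4e2* and *Eif4a1* were the called members under each of these scalings as well, beside 5.33% (nuclear genes) and 7.79% (median of ratios) of all genes. Array weights, which count each library by how well it follows its age, called 16 members, 15 of them lower (26.7%, beside 29.4% of all genes), and without the filter on low values 4 of 63 members were called, all lower (beside 3.68% of 26921 genes). With the median of ratios, leaving out a mouse gave between 0 and 5 called members, and 0 for 5 of the 8 mice (6 to 8 members then stood at an unadjusted limma p below 0.05). These fits called 2.62% to 19.2% of all genes, and the 5 members came from the fit that called 19.2%. The plot of log2 differences by class shows both scalings of the members.

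**Figure D1:**
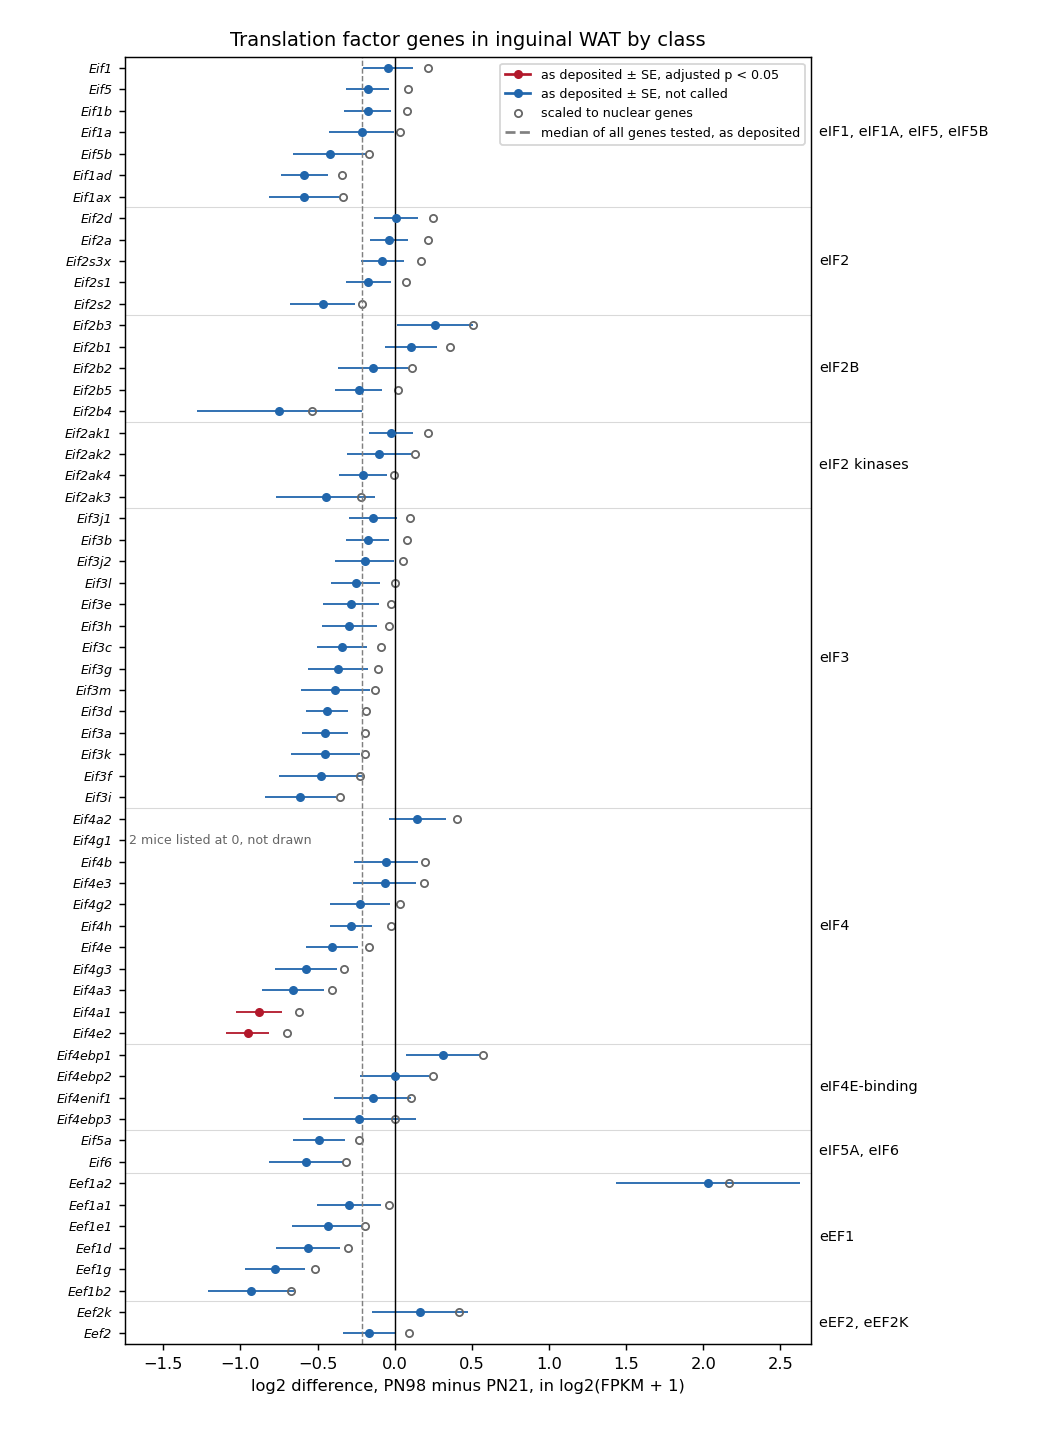
Log2 difference (PN98 minus PN21, in log2(FPKM + 1)) of the tested translation factor genes, ordered by class, with filled points and SE bars for the values as deposited (red, adjusted p below 0.05) and open points for values scaled to nuclear genes. The red points are *Eif4e2* at -0.95 and *Eif4a1* at -0.88, the dashed line marks the median of all genes at -0.21, and *Eef1a2* stands alone to the right at 2.03.

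Among the cap-binding proteins, *Eif4e2* (chromosome 1, 87213914 to 87240488, mm10) fell from 58.0 ± 5.9 FPKM at PN21 to 29.4 ± 1.9 FPKM at PN98 (SD, n = 4 each). It measured 63.1, 61.9, 50.1 and 56.7 FPKM in the PN21 mice and 31.7, 27.0, 29.6 and 29.2 FPKM in the PN98 mice. The lowest PN21 mouse lay well above the highest PN98 mouse. The log2 difference was -0.95 ± 0.14 (SE, as for all log2 differences given in this way, limma, adjusted p = 0.0116), and it was -0.74 with the median of ratios (limma, adjusted p = 0.027) and -0.70 with scaling to nuclear genes (limma, adjusted p = 0.0488). On the deposited scale the adjusted p stayed below the threshold whichever mouse was left out, at log2 differences from -1.02 to -0.91 and with limma adjusted p of up to 0.0496 (without mouse m106). With the median of ratios the call was lost in 5 of the 8 fits that left out a mouse, with limma adjusted p of up to 0.0831. The protein of *Eif4e2*, also called 4EHP, binds the cap but not eIF4G and is known as a repressor of the mRNAs it holds. Most of the signal (75.0%) came from 1 protein-coding transcript, which measured 33.6 to 53.3 FPKM at PN21 and 14.99 to 22.96 FPKM at PN98.

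*Eif4e*, the canonical cap-binding factor, was less abundant than *Eif4e2* in every mouse. It measured 15.2, 18.2, 13.6 and 14.5 FPKM at PN21 and 10.9, 13.03, 12.5 and 9.09 FPKM at PN98. The ages did not overlap, but the difference of -0.41 ± 0.17 did not pass (limma, adjusted p = 0.164). *Eif4e3*, the third cap-binding homologue, overlapped fully, with 35.2 to 56.4 FPKM at PN21 and 36.4 to 53.3 FPKM at PN98 (log2 difference -0.06 ± 0.20, limma, adjusted p = 0.856).

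*Eif4a1* (chromosome 11, 69666936 to 69672423, mm10) measured 275, 334, 265 and 342 FPKM at PN21 and 174, 171, 161 and 151 FPKM at PN98. All PN98 mice lay below all PN21 mice, with a log2 difference of -0.88 ± 0.15 (limma, adjusted p = 0.018). The difference was -0.66 with the median of ratios (limma, adjusted p = 0.0446) and -0.62 with scaling to nuclear genes (limma, adjusted p = 0.0441). The call was narrow, and leaving out mouse m49, mouse m106 or mouse m114 gave limma adjusted p of 0.0519, 0.0601 and 0.0564 at log2 differences of -0.83, -0.90 and -0.87. With the median of ratios it was lost in 7 of the 8 fits that left out a mouse (limma adjusted p up to 0.111). Of its FPKM 60.3% was assigned to a transcript that the annotation types as a processed transcript and 26.8% to the protein-coding ones, and the values for protein-coding transcripts alone differed by -0.70 (limma, adjusted p = 0.0396).

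The pseudogene *Eif4a-ps4*, which was not a member, is a close copy of *Eif4a1*, and reads could be split between them. It measured 218, 260, 201 and 229 FPKM at PN21 and 133, 137, 133 and 111 FPKM at PN98 (log2 difference -0.81, limma, adjusted p = 0.0224). The level of *Eif4a1* itself is therefore uncertain, while both loci were lower at PN98.

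*Eif4a2*, the paralogous helicase gene with a closely related protein (chromosome 16, 23107444 to 23114136, mm10), did not follow. It measured 133, 164, 194 and 137.6 FPKM at PN21 and 188, 201, 140 and 167 FPKM at PN98. The ages overlapped, with a log2 difference of 0.15 ± 0.19 (limma, adjusted p = 0.618). Its transcripts were not alike. One protein-coding transcript was estimated at 12.9, 2.87, 0.454 and 13.3 FPKM at PN21 and at 37.1, 65.4, 50.1 and 85.0 FPKM at PN98, whereas the other main protein-coding transcript was at 38.1 to 63.7 FPKM and at 20.1 to 48.9 FPKM. Summed over protein-coding transcripts alone, *Eif4a2* was higher at PN98 by 0.72 (limma, adjusted p = 0.0298), in a fit added after the values were seen in which 8.77% of 11785 genes were called. In the fit of single transcripts the first of them differed by 3.88 with an adjusted p of 0.125 by limma. How Cufflinks divided the reads among these overlapping transcripts was not tested.

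**Figure D2:**
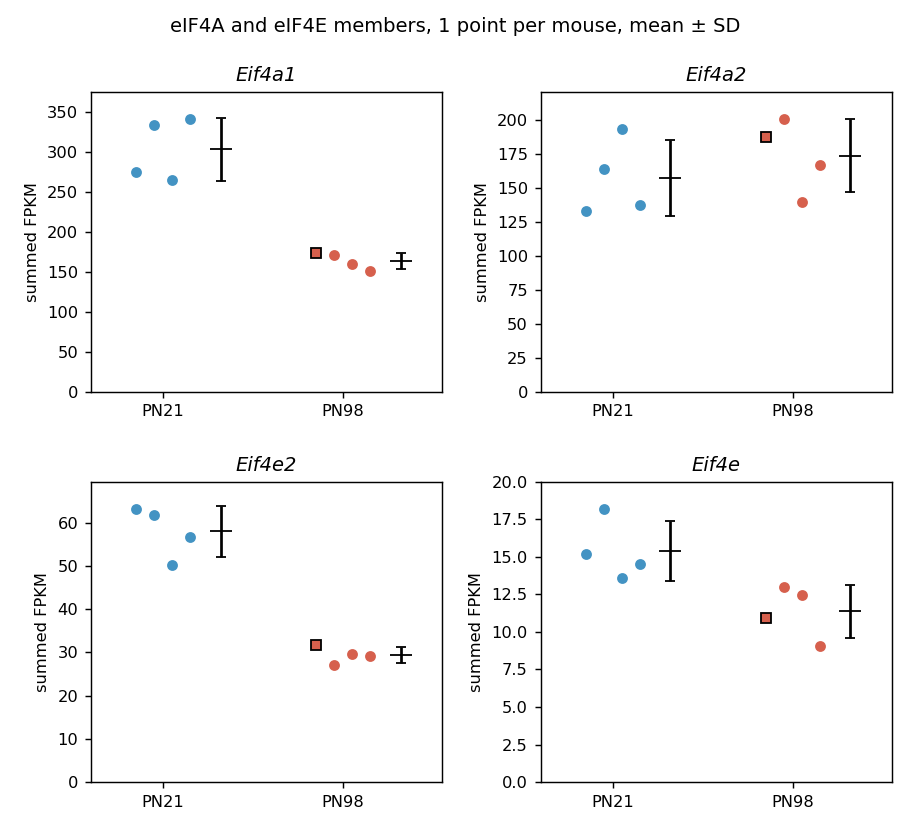
Summed FPKM (vertical axes, from 0) of *Eif4a1*, *Eif4a2*, *Eif4e2* and *Eif4e* in the 4 PN21 mice (blue) and 4 PN98 mice (red), with the mean and SD in black and a square for PN98 mouse m35. *Eif4a1* and *Eif4e2* separate the ages clearly, *Eif4e* narrowly, and *Eif4a2* does not.

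Promoter sequence of the called genes and their uncalled paralogues is shown so that the starts of related genes can be read side by side. The stretches are from RefSeq (GRCm38.p6) and run from 200 bases before to 20 bases after the annotated start, *Eif4a1* at chr11:69672404-69672623 (minus strand), *Eif4a2* at chr16:23107268-23107487 (plus), *Eif4e2* at chr1:87213711-87213930 (plus, 1 of 3 starts) and *Eif4e* at chr3:138525991-138526210 (plus, 1 of 2 starts). Capitals mark the letters CACGTG (E-box), CCGGAAG (ETS-type) and TGACGT (CRE core), searched on both strands.
Eif4a1: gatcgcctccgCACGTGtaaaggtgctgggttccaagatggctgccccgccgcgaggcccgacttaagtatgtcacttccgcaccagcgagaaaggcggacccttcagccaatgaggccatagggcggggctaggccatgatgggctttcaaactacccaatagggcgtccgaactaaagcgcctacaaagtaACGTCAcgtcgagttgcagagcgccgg
Eif4a2: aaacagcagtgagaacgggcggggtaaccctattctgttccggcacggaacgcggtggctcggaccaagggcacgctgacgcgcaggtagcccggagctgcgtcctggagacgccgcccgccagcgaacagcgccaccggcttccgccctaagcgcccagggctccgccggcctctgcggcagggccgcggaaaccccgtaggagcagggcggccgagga
Eif4e2: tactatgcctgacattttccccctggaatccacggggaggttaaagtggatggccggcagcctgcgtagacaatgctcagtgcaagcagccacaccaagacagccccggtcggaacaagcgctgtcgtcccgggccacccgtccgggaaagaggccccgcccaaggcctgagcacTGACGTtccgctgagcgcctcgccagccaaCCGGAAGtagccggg
Eif4e: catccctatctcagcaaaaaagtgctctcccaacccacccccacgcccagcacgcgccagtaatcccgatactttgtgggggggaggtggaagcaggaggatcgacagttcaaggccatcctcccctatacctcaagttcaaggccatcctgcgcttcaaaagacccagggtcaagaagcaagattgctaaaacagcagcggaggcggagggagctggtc
The *Eif4a1* stretch held an E-box and a CRE core and the *Eif4e2* stretch a CRE core and an ETS-type run, and the printed stretches of *Eif4a2* and *Eif4e* held none of the 3. The window of the other start of *Eif4e* held an E-box. Over the full windows of 300 bases (250 before and 50 after a start, any start of a gene), CACGTG stood in 12 of the 49 members with a promoter in the table (24.5%) and in 8.09% of all 27025 genes there. CCGGAAG stood in 17 members (34.7%) and in 9.93% of all genes, and TGACGT in 9 members (18.4%) and in 8.37% of all genes. The 27025 genes are more than the 15789 tested here, and shares among the tested genes alone were not computed. The 3 runs can share bases where they adjoin. Such a match describes the letters in the window and was not set against the age difference.

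Of the other eIF4 genes, *Eif4a3*, the helicase of the exon junction complex, did not overlap between the ages (85.9 to 124 FPKM at PN21 and 46.7 to 78.2 FPKM at PN98) but did not pass, at -0.66 ± 0.20 (limma, adjusted p = 0.0923). *Eif4g3*, a scaffold homologue, was at 22.2 to 30.5 FPKM and then 12.2 to 20.3 FPKM (log2 difference -0.58 ± 0.20, limma, adjusted p = 0.126). *Eif4g2*, a scaffold that lacks the eIF4E-binding part, was at 430 to 548 FPKM and then 324 to 566 FPKM, which overlapped (limma, adjusted p = 0.463). The main scaffold gene *Eif4g1* was listed at 0 in mouse m1 of PN21 and mouse m106 of PN98, at 134, 117 and 123 FPKM in the other PN21 mice and at 123, 153 and 147 FPKM in the other PN98 mice. A zero beside such levels in a gene that every cell uses can be a failed estimate, so the mean and difference of *Eif4g1* are not interpreted. *Eif4g1* was still counted among the tested members and in the ratio pairs. Among the cofactors of the helicase, *Eif4h* (94.9 to 112 FPKM and 78.7 to 93.2 FPKM) and *Eif4b* (46.1 to 72.7 FPKM and 43.7 to 73.1 FPKM) did not pass, the latter with overlapping ages.

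The eIF4E-binding proteins, which sequester eIF4E until mTORC1 phosphorylates them, did not pass in any of 4 genes. *Eif4ebp1* measured 171, 157, 107 and 199 FPKM at PN21 and 170, 152, 230 and 231 FPKM at PN98. Only the 2 highest PN98 mice exceeded all PN21 mice, with a log2 difference of 0.31 ± 0.24 (limma, adjusted p = 0.414). *Eif4ebp2* differed by -0.00 ± 0.22 (17.0 to 34.7 FPKM and 23.8 to 28.5 FPKM), and *Eif4ebp3* and the transporter gene *Eif4enif1* likewise overlapped.

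A ratio of 2 genes within a mouse does not depend on the scaling of its library, so related members were also compared as log2 ratios. The tested ratios were taken on log2(FPKM + 1), which keeps this nearly true only for genes far above 1 FPKM. *Eef1a2* was below 1 FPKM in PN21 mice m1, m49 and m145, at 0.0239, 0.258 and 0.238 FPKM. Its log2 ratio to *Eef1a1* in these mice was set largely by the added 1. Of 12 pairs fixed, 11 could be tested, and the smallest 2-sided p that 4 against 4 mice allow is 0.0286. The ratio of *Eif4a2* to *Eif4a1* was 0.485, 0.492, 0.731 and 0.402 in the PN21 mice and 1.08, 1.18, 0.871 and 1.11 in the PN98 mice. On the log2 scale it was higher by 1.03 (exact permutation p = 0.0286, adjusted over the 11 pairs 0.105), with no overlap. Which of the helicase genes was the more abundant at PN98 depended on the pseudogene copy. With the FPKM of *Eif4a-ps4* added to *Eif4a1*, in a ratio computed after the values were seen, *Eif4a2* was the less abundant in every mouse, at 0.271, 0.277, 0.416 and 0.241 of the sum at PN21 and 0.612, 0.653, 0.476 and 0.637 at PN98 (log2 difference 0.999, exact permutation p = 0.0286). The ratio of *Eif4e2* to *Eif4e* was 4.15, 3.40, 3.69 and 3.91 at PN21 and 2.90, 2.07, 2.37 and 3.21 at PN98, again without overlap, with a log2 difference of -0.55 (exact permutation p = 0.0286, adjusted 0.105). The ratio of *Eif4ebp1* to *Eif4e* was 7.85 to 13.7 at PN21 and 11.6 to 25.4 at PN98, with a log2 difference of 0.72 (exact permutation p = 0.0571, adjusted 0.157). No pair passed the adjustment, which 11 pairs at this number of mice could do only if 7 or more reached the smallest p.

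**Figure D3:**
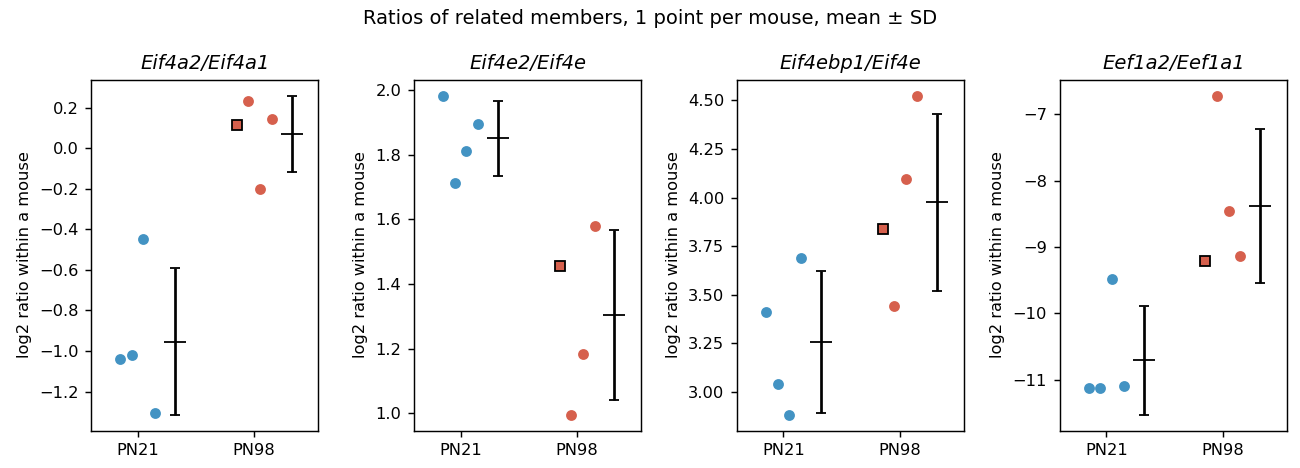
Log2 ratio of 2 related genes within a mouse, on log2(FPKM + 1), for 4 pairs in the PN21 mice (blue) and PN98 mice (red), with the mean and SD in black and a square for PN98 mouse m35. The ages separate for *Eif4a2*/*Eif4a1* (means -0.95 and 0.07), *Eif4e2*/*Eif4e* (1.85 and 1.30) and *Eef1a2*/*Eef1a1* (-10.71 and -8.38). They overlap for *Eif4ebp1*/*Eif4e* (3.26 and 3.98). The PN21 mean of *Eef1a2*/*Eef1a1* is set largely by the added 1, as *Eef1a2* was below 1 FPKM in mice m1, m49 and m145.

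Among 5 genes of the eIF2 group, which loads the initiator tRNA, no member passed. As deposited, where 67.0% of all genes were lower, 4 were lower and the median difference was -0.08, but with the median of ratios and with scaling to nuclear genes 1 was lower and 4 were higher, with medians of 0.13 and 0.17. *Eif2s1*, the alpha subunit that stress kinases phosphorylate, was at 13.4 to 17.2 FPKM at PN21 and 11.5 to 13.9 FPKM at PN98 (limma, adjusted p = 0.457). *Eif2s2*, the beta subunit, had the lowest value of the group at -0.47 ± 0.21 (limma, adjusted p = 0.186), and *Eif2a*, a separate initiator tRNA-binding factor, kept within 24.7 to 27.1 FPKM over all 8 mice. The 4 eIF2 kinase genes all overlapped between the ages, with differences from -0.45 (*Eif2ak3*, the endoplasmic reticulum kinase PERK) to -0.02 (*Eif2ak1*, the heme-regulated kinase).

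The 5 genes of eIF2B, which recharges eIF2 with GTP, all overlapped between the ages and none passed. *Eif2b4* measured 10.8, 18.5, 8.21 and 5.08 FPKM at PN21 and 11.04, 10.2, 2.51 and 2.40 FPKM at PN98, with a wide spread at both ages (log2 difference -0.75 ± 0.54, limma, adjusted p = 0.379). *Eif2b3*, at 11.5 to 23.2 FPKM and 17.0 to 28.3 FPKM, differed by 0.26 ± 0.24 (limma, adjusted p = 0.494), and *Eif2b1* by 0.11 ± 0.17.

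The factors eIF1, eIF1A, eIF5 and eIF5B select the start codon and join the subunits. All 7 genes of this class, which was formed by symbol and includes homologues, were lower as deposited. This held for 67.0% of all genes. With the median of ratios 4 were lower, beside 52.4% of all genes. *Eif1ad*, an eIF1A-like gene, was at 14.2, 18.6, 15.2 and 16.5 FPKM at PN21 and 12.2, 9.86, 9.98 and 9.58 FPKM at PN98. It did not overlap but missed the threshold, at -0.59 ± 0.15 (limma, adjusted p = 0.0614). *Eif1ax*, X-linked and coding for eIF1A, was at 32.5 to 58.5 FPKM and 25.0 to 39.0 FPKM (log2 difference -0.59 ± 0.23, limma, adjusted p = 0.146), and its autosomal copy *Eif1a* at 20.8 to 34.8 FPKM and 16.9 to 24.5 FPKM (-0.22 ± 0.21, limma, adjusted p = 0.514). *Eif1*, the guardian of start codon choice, was level at 127 to 181 FPKM and 129 to 162 FPKM (log2 difference -0.04 ± 0.16, limma, adjusted p = 0.882). *Eif1b*, its homologue, was at 36.4 to 50.03 FPKM and 34.0 to 36.1 FPKM (limma, adjusted p = 0.461).

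eIF3 is the large complex that scaffolds the small subunit. All 14 of its genes were lower at PN98 as deposited, beside 67.0% of all genes. The differences ran from -0.61 (*Eif3i*) to -0.14 (*Eif3j1*), with a median of -0.36, and no gene passed. In 4 genes the ages did not overlap, each lower at PN98, where this held for 10.1% of all genes. *Eif3d*, a subunit that can itself bind the cap, had the smallest p, with 59.3, 59.4, 59.2 and 65.6 FPKM at PN21 and 50.3, 42.2, 42.03 and 44.3 FPKM at PN98 (log2 difference -0.44 ± 0.13, limma, adjusted p = 0.0922). *Eif3a*, the core subunit, was at 71.6 to 87.9 FPKM and then 49.4 to 65.8 FPKM (-0.45 ± 0.15, limma, adjusted p = 0.111). Scaled to nuclear genes, 10 of the 14 were lower, beside 49.5% of all genes, with a median of -0.10. *Eif3e* has 2 pseudogene copies in the table, which may take part of its reads.

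Of the genes of eIF5A, which carries hypusine and eases the passage of difficult peptide bonds, and of eIF6, which keeps the large subunit free, *Eif5a* was at 333, 327, 246 and 259 FPKM at PN21 and 198, 185, 240 and 201 FPKM at PN98. The gap between the ages was small (log2 difference -0.49 ± 0.17, limma, adjusted p = 0.119). The pseudogene *Eif5al3-ps*, which may take part of the reads of *Eif5a*, was at 103 to 124 FPKM and then 81.0 to 95.9 FPKM (-0.40, limma, adjusted p = 0.122). *Eif6* was at 120 to 238 FPKM and 88.3 to 127 FPKM (-0.58 ± 0.24, limma, adjusted p = 0.17).

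In the elongation factors the exchange complex eEF1B, which recharges eEF1A with GTP, held the lowest log2 differences. *Eef1b2*, the catalytic subunit, measured 608, 708, 705 and 1071 FPKM at PN21 and 649, 341, 341 and 325 FPKM at PN98. PN98 mouse m35 lay within the PN21 range and the other PN98 mice lay close together far below it. The log2 difference was -0.93 ± 0.28 (limma, adjusted p = 0.0881). *Eef1g*, the structural subunit, measured 332, 348, 352 and 404 FPKM at PN21 and 274, 183, 234 and 161 FPKM at PN98, without overlap but with mouse m35 again the highest of its age (-0.78 ± 0.19, limma, adjusted p = 0.0577). *Eef1d*, the second exchange subunit, was at 171, 178, 159 and 247 FPKM and then 167, 107, 111 and 127 FPKM (-0.56 ± 0.21, limma, adjusted p = 0.14). In *Eef1a1* mouse m35 exceeded every other mouse of either age, with 2293, 2798, 2952 and 2723 FPKM at PN21 and 3180, 1865, 2062 and 1864 FPKM at PN98 (-0.29 ± 0.21, limma, adjusted p = 0.372).

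Mouse 35 was also the PN98 mouse with 1205 FPKM of summed lymphocyte markers, and the part of that in its eEF1 values was not tested. Without it 9 members were called, all lower (beside 22.9% of all genes in either direction and 18.4% in the lower). These were *Eif4e2*, *Eif4a1*, *Eef1b2* (-1.17, limma, adjusted p = 0.0134), *Eef1g* (-0.91, adjusted p = 0.0153), *Eef1d*, *Eif1ad*, *Eif3a*, *Eif3d* and *Eif4a3*. Nearly all of the FPKM of *Eef1b2* (97.1%) was assigned to transcripts typed as targets of nonsense-mediated decay and almost none of that of *Eef1g* (0.114%) to protein-coding ones, so their totals rest on transcripts other than the annotated coding ones.

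**Figure D4:**
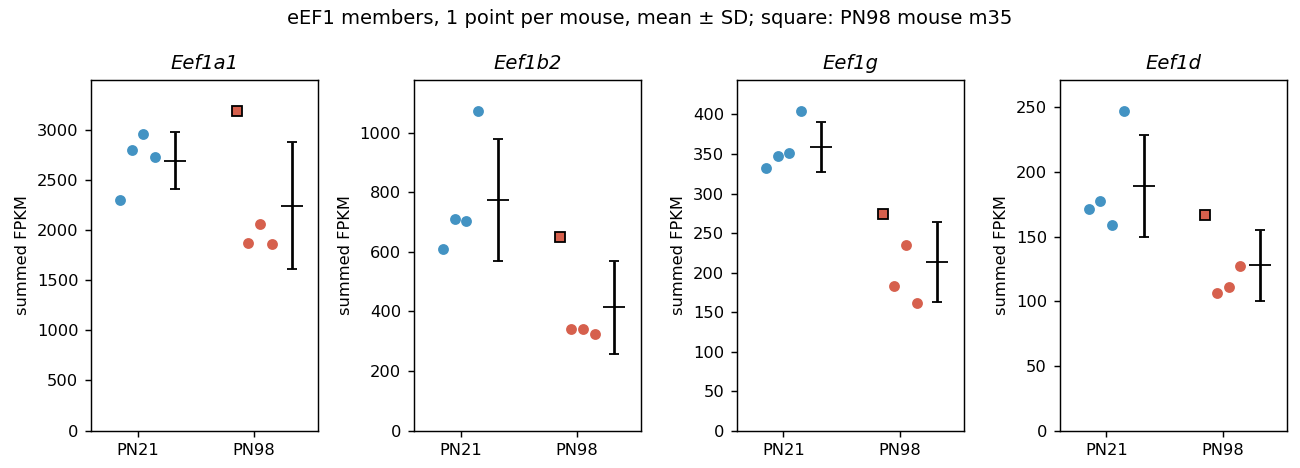
Summed FPKM (vertical axes, from 0) of 4 eEF1 genes in the PN21 mice (blue) and PN98 mice (red), with the mean and SD in black and a square for PN98 mouse m35. The square is the highest PN98 point in each panel, at 3180 FPKM for *Eef1a1*, 649 FPKM for *Eef1b2*, 274 FPKM for *Eef1g* and 167 FPKM for *Eef1d*.

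*Eef1a2*, the eEF1A gene of skeletal muscle, heart and neurons, had the highest log2 difference of the members. It measured 0.0239, 0.258, 3.15 and 0.238 FPKM at PN21 and 4.37, 16.8, 4.85 and 2.31 FPKM at PN98. PN21 mouse m138 exceeded PN98 mouse m125, so that the ages overlapped, and the difference of 2.03 ± 0.60 did not pass (limma, adjusted p = 0.086). Its share of the eEF1A FPKM remained at most 0.891%. The order of the 8 mice by *Eef1a2* was the same as that by the mean of 13 skeletal muscle markers (Spearman's rho = 1, exact permutation p = 4.96e-05). Pearson's r was 0.98 (exact permutation p = 2.48e-05, the smallest that pairings of 8 mice can give). This 1 relation was computed for the member with the highest log2 difference, and neither p was adjusted. The permutations mixed the ages, and both *Eef1a2* and the markers were higher at PN98 on average, so each p also carries the age difference. Without mice m1 and m106, the farthest from the median, r was 0.99, and within the 4 PN21 mice alone it was 0.93. Within the PN21 mice mouse m138 had both the highest *Eef1a2* and the highest muscle markers (656 FPKM summed), and within the PN98 mice this was mouse m106 (3705 FPKM).

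**Figure D5:**
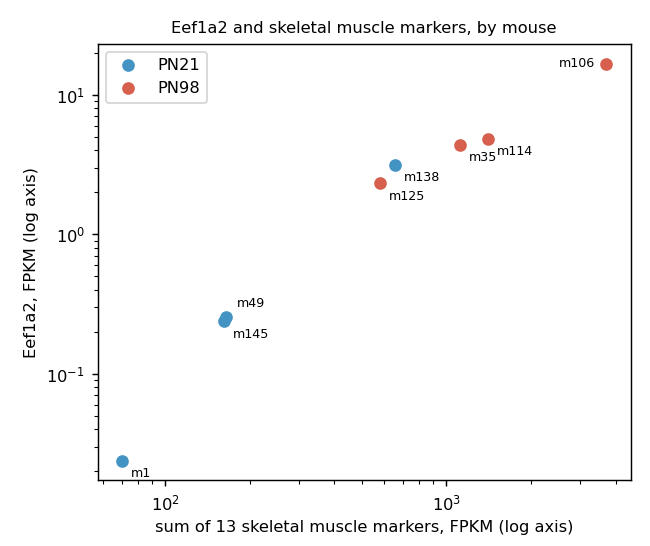
*Eef1a2* (vertical, FPKM, log axis) against the sum of 13 skeletal muscle markers (horizontal, FPKM, log axis) in 4 PN21 mice (blue) and 4 PN98 mice (red), labelled by mouse. The points climb from mouse m1 (0.0239 FPKM) to mouse m106 (16.8 FPKM), and PN21 mouse m138 lies among the PN98 mice.

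*Eef2*, the translocase, measured 509, 451, 568 and 410 FPKM at PN21 and 535, 384, 409 and 403 FPKM at PN98, with overlap (log2 difference -0.16 ± 0.17, limma, adjusted p = 0.549). Its inhibitory kinase *Eef2k* measured 28.1, 32.7, 31.8 and 22.4 FPKM at PN21 and 51.7, 19.1, 25.2 and 41.8 FPKM at PN98. The PN98 mice lay on both sides of the PN21 range (0.16 ± 0.31, limma, adjusted p = 0.749), and the ratio of *Eef2k* to *Eef2* overlapped (exact permutation p = 0.257, adjusted over the 11 pairs 0.349).

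The genes around the factors were taken from lists of recycling and release factors, poly(A)-binding proteins, mTORC1 control, the integrated stress response (the program downstream of eIF2 phosphorylation) and the enzymes that modify eIF5A and eEF2. Of 46 genes found, 45 were tested and 3 were called, all higher at PN98 (6.67%, beside 5.49% of all genes in either direction and 2.42% in the higher). *Chac1*, a glutathione-degrading enzyme and known ATF4 target, rose from 0.438, 0.338, 0.447 and 0.696 FPKM at PN21 to 6.17, 5.69, 2.18 and 8.63 FPKM at PN98 (log2 difference 2.07 ± 0.32, limma, adjusted p = 0.0126). *Trib3*, a pseudokinase of the same program, rose from 2.04, 3.04, 2.29 and 2.96 FPKM to 6.32, 7.12, 4.07 and 8.30 FPKM (1.03 ± 0.22, limma, adjusted p = 0.0341). *Sesn2*, a leucine sensor that restrains mTORC1, rose from 5.48, 3.22, 5.71 and 4.59 FPKM to 15.4, 15.8, 10.5 and 12.3 FPKM (1.34 ± 0.21, limma, adjusted p = 0.0133). None of these 3 genes overlapped between the ages, where this held for 16.2% of all genes in either direction. Without PN98 mouse m106 none of the 45 genes was called (8 stood at an unadjusted limma p below 0.05), in a fit that called 1.3% of all genes, and without PN98 mouse m35, the one high in lymphocyte markers, 7 were called, 3 higher and 4 lower, where 22.9% of all genes were called.

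The other 6 stress response genes did not pass. *Atf4*, its central transcription factor, was at 65.9 to 93.7 FPKM at PN21 and 52.1 to 69.97 FPKM at PN98 (log2 difference -0.30 ± 0.17, limma, adjusted p = 0.277). *Ddit3* differed by -0.12 and *Asns*, asparagine synthetase, by 0.29 (limma, adjusted p = 0.704 and 0.415). Among 17 tested mTORC1 genes *Sesn2* alone was called, and *Larp1*, a binder of mRNAs with terminal oligopyrimidine starts, was listed at 0 in mouse m49 and was at 18.3 to 29.4 FPKM elsewhere. None of the 9 release and recycling genes, the 5 poly(A)-binding genes and the 6 modifying enzymes was called, and of these 20 genes 17 were lower as deposited (beside 67.0% of all genes), 12 with the median of ratios and 11 with scaling to nuclear genes. *Pabpc1*, the main poly(A)-binding protein, was at 316, 336, 361 and 439 FPKM and then 298, 197, 221 and 168 FPKM, without overlap (-0.74 ± 0.21, limma, adjusted p = 0.0807). Of the 9 members whose mRNAs are textbook examples of terminal oligopyrimidine starts (*Eef1a1*, *Eef1b2*, *Eef1d*, *Eef1g*, *Eef2*, *Eif3e*, *Eif3f*, *Eif3h* and *Eif4b*), all were lower as deposited (beside 67.0% of all genes) and none was called (3 stood at an unadjusted limma p below 0.05). Of the 8 pathway genes below an unadjusted p of 0.05 that were not called, 7 were lower. Among all genes tested 4359 stood below this p, called ones included, and 3056 of them were lower.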

How the data were processed

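Poly(A)+ RNA of inguinal white adipose tissue from 8 mice was sequenced (paired end, Illumina). Reads were aligned by the authors with STAR 2.3.0 (genome mm10), and Cufflinks 2.1.1 gave an FPKM (fragments per kilobase of transcript, relative to the mapped fragments of the library) for each Gencode transcript. Of the 91969 transcripts in the deposited FPKM file, 40380 had lost a decimal mark. The mark was restored from the deposited Average, SD and Score columns, which are pooled over the libraries, and 67 transcripts with no single reading were left out, none of them of a gene described here. All 5006 restored transcripts that also stand in a second, intact table by the authors were equal to it in all 8 mice. The deposited columns of the study's own contrasts (fold changes and p-values) were not used.

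Transcripts were assigned to genes with GENCODE vM21 (GRCm38, the same assembly as mm10) and the FPKM was summed per gene. Of 37199 genes, the 15789 with a mean of at least 1 FPKM over the 8 mice were compared with limma 3.58.1 (R 4.3.3) on log2(FPKM + 1), PN98 against PN21 (n = 4 each), with Benjamini-Hochberg adjustment over all genes tested, and a gene was called at an adjusted p below 0.05. Fold changes are therefore on the log2(FPKM + 1) scale, which understates the change of low genes. On simulated data of 15789 genes the fit recovered 35 of 100 genes changed by 1 on the log2 scale and 90 of 100 changed by 3, with 5 false calls. Ratios of related genes within a mouse were compared with exact 2-sided permutation tests over the 70 splits of the 8 mice. The values are FPKM and not counts, so sequencing depth and counting error cannot be stated. The 8 mice are taken as separate animals from their numbers in the labels.

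The genes, their classes, the pathway lists and the marker lists were chosen with earlier results of these data known. Genes are named where they were called with or without another scaling, were among the 5 most abundant, the 5 with the highest or the 5 with the lowest log2 difference, belonged to a fixed ratio pair, were listed at 0 or failed the filter, or were called among the pathway genes; other members are given as examples of their class. Alternatives were a pseudocount of 0.1, scaling by the median of ratios or to the summed FPKM of nuclear genes, no filter, the study's filter, array weights, a mean-variance trend, single transcripts (the transcript of the lowest p for each gene), protein-coding transcripts alone and leaving out each mouse. The single-transcript, protein-coding and array-weight values are named as such where they are given.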

Additional observations from a re-analysis of the deposited data

Results flagged for a closer look

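In groups of 4 mice, 12 of 68 values examined had 1 mouse far from the others. Examined were the named members and the tested ratios at each age, on log2(FPKM + 1). Far means that the gap to the nearest mouse, as a share of the whole range, exceeded Dixon's 95% critical value. Chance flags about 1 in 20 such groups, and the ratios repeat the genes they are made of. *Eef1a2* was 3.15 FPKM in mouse m138 of PN21, and the log2 ratio *Eef1a2*/*Eef1a1* was -9.48 in that mouse. The other PN21 mice were at 0.0239 to 0.258 FPKM, where the added 1 draws both values together. *Eef1b2* was 649 FPKM in mouse m35 of PN98. *Eif1b* was 50.03 FPKM in mouse m145 of PN21. *Eif4g3* was 12.2 FPKM in mouse m125 of PN98. *Eif4g1* was listed at 0 in mouse m1 of PN21 and at 0 in mouse m106 of PN98, which put the log2 ratio *Eif4g3*/*Eif4g1* at 4.54 and 4.30 and *Eif4g2*/*Eif4g1* at 8.98 and 9.15 in these mice. The log2 ratio *Eef2k*/*Eef2* was -3.74 in mouse m49 of PN21. The causes of these values were not tested.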

How the results depend on the processing

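No paired analysis was made. By the study's methods mice were killed at each age for their tissue, and the labels give no link such as litter between the 2 ages. The 2 called members became 16 with array weights and 4 without the filter on low values. They became 4 with protein-coding transcripts alone and 0 with single transcripts. The single-transcript fit, which took the lowest p of each gene, called 2.14% of 13076 genes. In it 18 of 58 members stood at an unadjusted limma p below 0.05. There *Eif4a1* and *Eif4e2* differed by -0.97 and -1.24 with limma adjusted p of 0.0588 and 0.0543. Leaving out each mouse gave 1 to 9 called members where 1.3% to 22.9% of all genes were called, and with the median of ratios 0 to 5 where 2.62% to 19.2% were. The pathway genes outside the members ranged from 0 to 7 calls when a mouse was left out. The median difference of the members moved from -0.24 to -0.039 with the median of ratios, to -0.0010 with scaling to nuclear genes and to -0.350 with single transcripts. The medians over all genes in these fits were -0.21, -0.029, 0.0068 and -0.346. Signs that turned belonged to uncalled members, including *Eif4g1* with its values of 0. Their differences as deposited ran from -0.22 (*Eif4g2*) to 0.16 (*Eef2k*), beside a median of -0.21 over all genes. With the median of ratios and with scaling to nuclear genes the differences became 0.051 and 0.095 for *Eef2*, 0.17 and 0.22 for *Eif1*, 0.035 and 0.078 for *Eif1b*, 0.15 and 0.19 for *Eif4e3* and 0.21 and 0.25 for *Eif4ebp2*, and with the latter scaling 0.034 for *Eif1a* and 0.037 for *Eif4g2*. Array weights gave -0.31 for *Eef2k*, 0.022 for *Eif1* and -1.63 for *Eif4g1*, protein-coding transcripts 0.078 for *Eif1*, a pseudocount of 0.1 gave 0.00079 for *Eif4ebp2*, and single transcripts 0.076 for *Eif4ebp2* and 1.31 for *Eif4g2*. The *Eif4g2* value came from a transcript with 0.484% of the FPKM of the gene. The most abundant *Eif4g2* transcript (32.4%) differed by -0.38. When a mouse was left out, the differences ranged from -0.060 to 0.40 for *Eef2k*, -0.11 to 0.059 for *Eif1*, -0.20 to 0.031 for *Eif4e3*, -0.20 to 0.13 for *Eif4ebp2* and -1.61 to 1.91 for *Eif4g1*, and the log2 ratios from -2.28 to 1.40 for *Eif4g2*/*Eif4g1* and -2.52 to 0.96 for *Eif4g3*/*Eif4g1*. Of the other settings run on named members, 341 of 388 values kept the direction and the side of the threshold. The cause of these changes was not tested. The files hold no counts, so that depth, and with it the error of low values such as *Eef1a2* at PN21, is unknown.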
